A study of Mus musculus with 2 samples.

Results

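Exonic DNase hypersensitive sites away from promoters numbered 7691 of the 194662 autosomal sites (3.95%) that both kidney libraries held. Overlapping peaks of both lists were joined, and the joined region counted as shared when each list had contributed at least 1 peak. A site was exonic when its centre lay over 1 kb from every transcription start site (TSS) of GENCODE M21 and inside an annotated exon. The other shared sites were 45652 promoter sites within 1 kb of a TSS (23.5%), 78838 intronic sites (40.5%) and 62481 intergenic sites (32.1%).

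The data were DNase-seq peak lists from kidney tissue taken at 0 day after birth from B6NCrl mice, in 1 group of 2 biological replicates with no treatment or mutation named in the labels. Each replicate had its own tissue record, but both pointed to the same donor record, nothing stated separate animals, and sex was not collected. The spread between replicates may therefore be technical. Replicate 1 had 266133 peaks and replicate 2 had 257133, of which 10474 and 10300 were exonic by the same rule. Sequencing depth is unknown from the sources used here, so no precision per peak was available, and with a single group no test was possible. Of 37 marker genes of kidney cell types, 34 had a promoter peak in both lists. Of 17 markers of leukocytes, erythroid cells, adrenal cortex and liver, 8 did. The share over all genes was not computed, so these counts have no background beside them.

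DNase I cuts DNA where nucleosomes are displaced, usually by bound transcription factors, so a hypersensitive site marks an open regulatory element. Most such elements lie at promoters or in non-coding sequence. Some lie in exons, where the same bases can carry a factor's recognition sequence and, in coding sequence, codons as well. In the newborn mouse kidney, nephrons are still being formed from progenitor cells, next to tubules, vessels and stroma that have already differentiated.

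The examples below come from the strongest coding sites with a consensus match for 4 regulators, 30 bases each, 5′ to 3′ on the strand of the match, with the matched bases in capitals (GRCm38, RefSeq reference sequence). CTCF is the zinc finger protein that anchors chromatin loops, REST represses neuronal genes outside neurons, NFI factors bind a palindrome, and NRF1 binds a GC-rich element.
CTCF, Synpo2l exon 4: ttcatgcagCCACTAGGGGGCaggagttac
CTCF, Eri1 exon 7: tcatccttaCCAGTAGAGGGCgctccagct
CTCF, Ptprb exon 6: tcccaatctCCAGCAGGGGGCgtccagttc
REST, Extl3 exon 5: gcgcccgTCAGCACCATGGACAGctcacag
REST, Gja10 exon 1: ccagaatTCAGCACCCTGGACAGcaaccgt
NFI, Il21r exon 9: aatccccTTGGCAGCTGGCCAAgcggtctc
NRF1, Apold1 exon 2: gccaagtgctGCGCCTGCGCgaagtggccc
NRF1, Plvap exon 3: tgggtttctcGCGCCTGCGCctcggtcccg

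In Synpo2l, whose product binds actin filaments, the match lay in the site at chr14:20661081-20661230, where the signal was 193.7 (replicate 1) and 215.3 (replicate 2). Signal is the authors' own value per peak, and the sources used here do not state its scaling. Pairs of signal values below stand in the order replicate 1, replicate 2. The window shown spans chr14:20661153-20661182 on the minus strand, in the last exon of the gene and 3418 bp from the nearest TSS. The Ptprb site, in a gene for an endothelial tyrosine phosphatase, lay 18024 bp from a TSS at chr10:116319321-116319470 and had signals of 82.7 and 96.5. Its CTCF match ran on the strand opposite to the gene (window chr10:116319394-116319423). The Eri1 site (chr8:35469081-35469230; window chr8:35469155-35469184, minus strand) had signals of 79.6 and 126.9 in replicates 1 and 2. Eri1 is an exonuclease that trims histone mRNA. All 3 CTCF matches shown lay wholly in coding sequence. Another picked site, in Nsmce1 with signals of 106.0 and 97.5, is not shown, and its match did not lie wholly in coding sequence. The coding median was 19.1 in replicate 1 and 18.8 in replicate 2. These sites were picked for their strength, so their place above it follows from the choice.

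The REST examples were weaker, but the CTCF examples were picked from the strongest of 84 coding sites with a CTCF match. The Extl3 site (chr14:65058961-65059110; window chr14:65059001-65059030, plus strand) had signals of 28.0 and 28.9, and the Gja10 site (chr4:32601261-32601410; window chr4:32601323-32601352, minus strand) 30.02 and 33.2. Only these 2 coding sites held a REST match. Il21r, the interleukin-21 receptor gene, held the only coding NFI match, in its last exon (chr7:125632381-125632530; window chr7:125632448-125632477, plus strand), with signals of 100.3 and 79.1. Apold1 and Plvap, which encode proteins of endothelial cells, held the strongest coding NRF1 matches. The Apold1 site (chr6:134983601-134983750; window chr6:134983676-134983705, plus strand) had signals of 99.9 and 97.5, and the Plvap site (chr8:71507681-71507850; window chr8:71507776-71507805, plus strand) 82.0 and 83.3. Their central 150 bp held 74.0% and 77.3% GC.

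Exonic sites were spread over coding sequence and 3′ UTRs in nearly the proportions of the sequence that these offer, while 5′ UTRs held a larger share of sites than of sequence. Coding sequence held 2147 sites (27.9%) and made up 29.7% of the exonic sequence over 1 kb from a TSS, and 3′ UTRs held 2741 sites (35.6%) on 36.9% of it. The 5′ UTRs held 116 sites (1.51%) on 0.783% of the sequence. Exons of non-coding transcripts of protein-coding genes, such as retained-intron transcripts, held 1063 sites (13.8%), and exons of other genes, mostly long non-coding RNAs, held 1624 (21.1%). A centre that fitted several of these was read as coding first, then 5′ UTR, 3′ UTR, non-coding transcript and other gene, in that order.

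Counted per Mb of sequence outside the promoter windows, exons had 95.2 shared sites, against 81.7 in introns and 52.1 between genes. Coding sequence had 89.4 per Mb and 3′ UTRs 92.1. The 5′ UTRs stood highest at 183 per Mb, on 0.633 Mb of sequence. In each replicate's own list, exons averaged 129 ± 1.52 peaks per Mb and introns 111 ± 3.53 (SD, n = 2). Coding sequence averaged 120 ± 2.62 peaks per Mb and 3′ UTRs 125 ± 3.51. The exon value lay above the intron value in both lists. Coding sequence lay 9.48 peaks per Mb below 3′ UTRs in replicate 1 and 0.801 below them in replicate 2, so their order was not resolved at n = 2. It also turned round with the annotation settings, to a coding over 3′ UTR ratio of 1.08 with a 500 bp promoter window and 1.002 when UTRs were read before coding sequence, from 0.971. Other settings lowered it, to 0.916 with the upper 50% of peaks by signal, 0.865 with a 2 kb window and 0.493 when the whole site had to lie in exonic sequence.

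**Figure D1:**
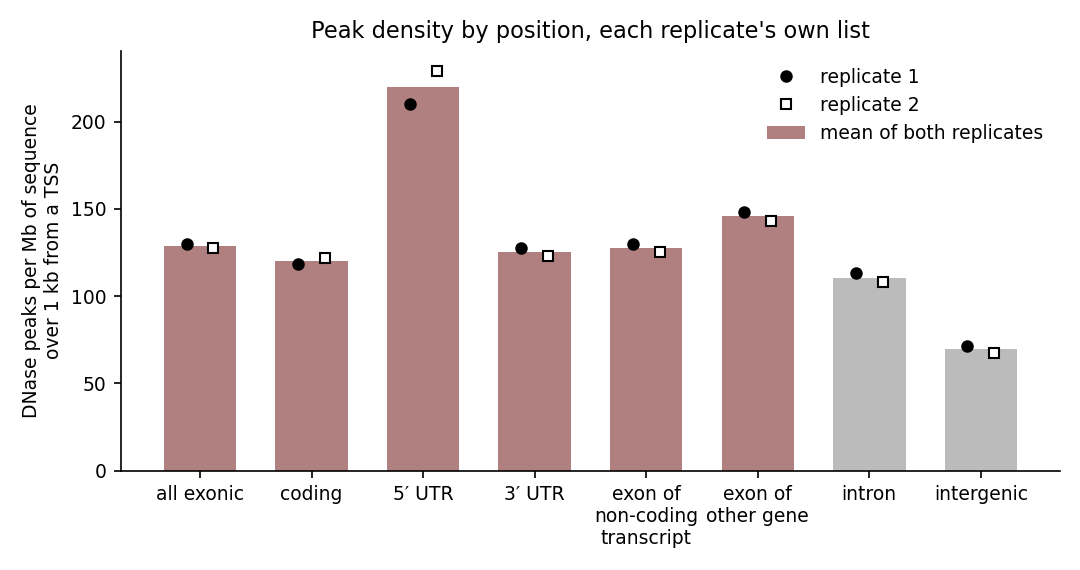
Peaks per Mb of autosomal sequence over 1 kb from a TSS, by position, for exonic classes (brown) and introns and intergenic sequence (grey); bars are means of the 2 replicates and points the replicates. The 5′ UTRs stand at 210 and 229 peaks per Mb, and the other exonic classes lie between 118 and 148, above introns at 113 and 108.

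Base composition differed between these classes. Coding sequence outside the promoter windows averaged 50.05% GC, against 42.9% in 3′ UTRs and 42.3% in introns, and site density climbed steeply with GC everywhere. When introns of equal GC content were taken as the yardstick, coding sequence held 0.549 times the number of sites at intronic density (2147 sites, against 3908). The 3′ UTRs held 0.993 times that number (2741, against 2760). Each replicate's own list gave 0.572 and 0.586 for coding sequence and 1.02 and 1.01 for 3′ UTRs. Matching introns for distance from a TSS as well gave 0.503 for coding sequence, while matching for distance alone gave 0.989. Counting only sites that lay wholly in exonic sequence lowered the ratio at equal GC to 0.263, since it removed coding sites and left the sequence as it was.

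The lower coding density ran through nearly the whole range of GC. At 45 to 50% GC in the surrounding 150 bp, coding sequence had 58.4 sites per Mb, 3′ UTRs 100.5 and introns 102.6. At 55 to 60% GC the values were 100.4, 231 and 250 per Mb. Above 65% GC the order against introns turned round, with 633 sites per Mb in coding sequence, 772 in 3′ UTRs and 495 in introns. That bin held 425 coding sites, 19.8% of them, on 0.672 Mb. Coding density was below 3′ UTR density in all 8 GC bins, at 0.272 to 0.820 times its value.

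**Figure D2:**
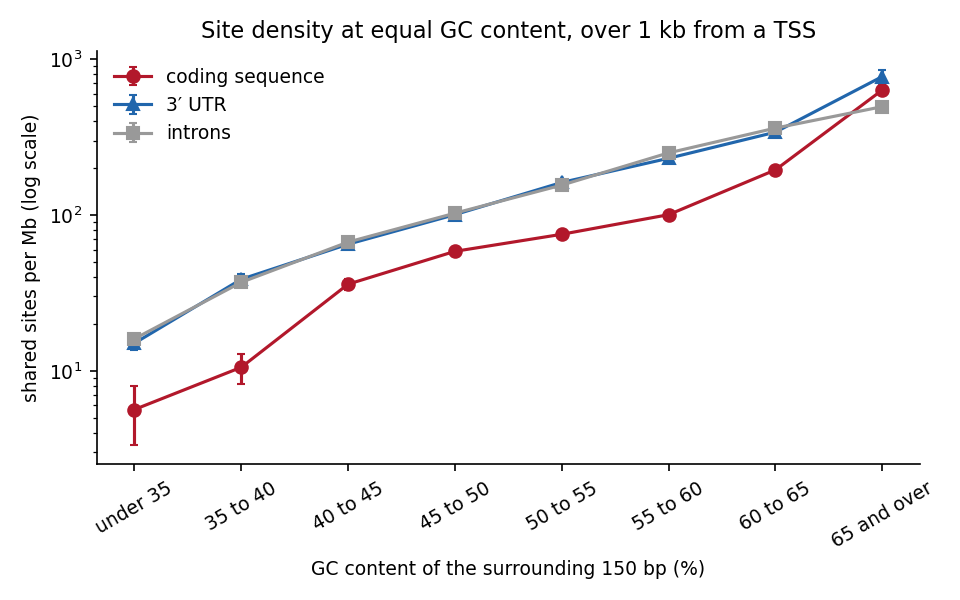
Shared sites per Mb (log axis) over 1 kb from a TSS against the GC content of the surrounding 150 bp, for coding sequence, 3′ UTRs and introns; error bars are the square root of the site count on the same scale and cover counting error only. The 3′ UTR and intron lines run together up to 65% GC, while coding sequence lies below both until the last bin, where it stands between them.

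Exonic sites were themselves GC-rich. Their central 150 bp had a median GC of 52.0% (quartiles 46.7% and 58.0%), against 48.7% for intronic, 48.0% for intergenic and 57.3% for promoter sites. Coding sites reached the promoter median of 57.3%, 5′ UTR sites had 54.0% and 3′ UTR sites 50.7%. The median ratio of observed to expected CpG was 0.476 in coding sites and 0.267 in 3′ UTR sites, against 0.225 in intronic and 0.556 in promoter sites. Sites with over 50% GC and a CpG ratio over 0.6 made up 14.0% of exonic sites (1080), 32.9% of coding sites (707) and 6.24% of 3′ UTR sites. The share was 2.56% in intronic, 3.68% in intergenic and 41.9% in promoter sites. CpG-rich exonic sites had median signals of 21.9 and 23.1, against 60.3 and 64.2 for CpG-rich promoter sites.

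The strength of exonic sites was that of other sites away from promoters. Median signal was 19.6 and 19.3 for exonic sites, 19.4 and 18.3 for intronic sites, 20.5 and 19.1 for intergenic sites, and 31.1 and 31.8 for promoter sites. Among exonic classes the medians ran from 19.1 in coding sequence to 20.9 in exons of other genes in replicate 1, and from 18.3 in exons of non-coding transcripts to 20.3 in 5′ UTRs in replicate 2. The quartiles of all exonic sites, 13.8 and 32.8 in replicate 1, were far wider than these gaps. The strongest decile of all shared sites included 5.56% of exonic sites (428), 4.61% of coding sites and 11.2% of 5′ UTR sites, against 4.04% of intronic, 5.96% of intergenic and 26.6% of promoter sites. Exonic sites made up 4.84% to 5.83% of non-promoter sites in every decile of signal.

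**Figure D3:**
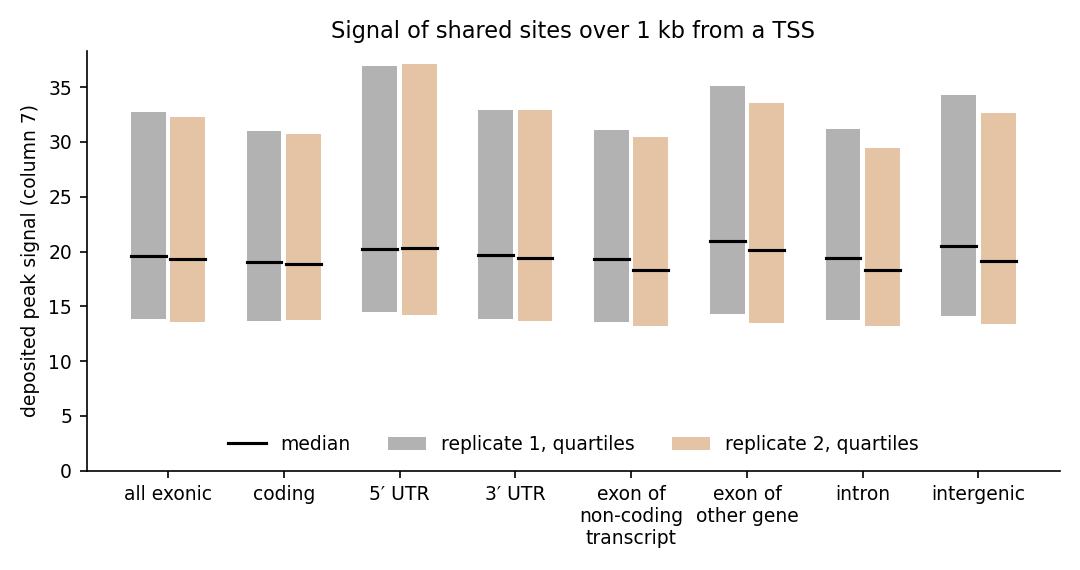
Deposited signal of shared sites over 1 kb from a TSS, by position and replicate; boxes span the quartiles and black lines are medians. All exonic classes overlap introns and intergenic sequence over most of their quartile range, with medians between 18.3 and 20.9.

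Signal of exonic sites was ordered alike in both replicates, with a Spearman coefficient of 0.881 over 7691 sites, which share their libraries. Promoter sites had 0.961 and intronic sites 0.863. After centring on the median ratio of all shared sites, 49 exonic sites differed by over 2-fold between replicates (0.637%), beside a background of 0.631% of all shared sites. Of these, 30 were stronger in replicate 1 and 19 in replicate 2, and 6 were coding. Of the exonic peaks in each list, 73.6% in replicate 1 and 75.3% in replicate 2 overlapped a peak of the other list, against 72.6% and 75.99% of intronic peaks. Read placement was rarely ambiguous, since all 32-base words were unique in the genome for 94.5% of exonic sites, and 25 sites (0.325%) had under 50% unique words.

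Most exonic sites lay in last exons, as did most exonic sequence. In 1 transcript per site, chosen with the principal isoform first, 63.3% of the 6066 sites in protein-coding genes lay in the last exon (3841). Internal exons held 1513 (24.9%), single-exon transcripts 564 (9.30%) and first exons 148 (2.44%). Most of the sequence offered is terminal too: in 1 representative transcript per gene, last exons held 63.6% of the sites on 60.6% of the sequence. Their density was 96.96 per Mb, against 71.9 in internal exons. First exons, which only rarely reach 1 kb from a TSS, had 382 per Mb on 0.243 Mb. By exon number, density was 292 per Mb in exon 1, 105 in exon 2, 84.0 in exon 3, 83.9 in exons 4 to 10 and 87.0 beyond exon 10. The highest exon number with a site was 143.

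Coding and 3′ UTR sites sat in different exons. Of coding sites, 60.6% lay in internal exons (1302) and 31.3% in last exons (672), and of 3′ UTR sites 93.3% in last exons (2556). Coding sites in last exons had median signals of 21.3 in replicate 1 and 21.2 in replicate 2 at a median GC of 61.3%, and those in internal exons 18.1 and 18 at 55.3%. The exons holding coding sites had a median length of 369 bp, with the site centre a median of 73 bp from the nearest exon edge. Only 47.8% of coding sites (1026) lay wholly within exonic sequence, and the others reached past an exon edge, while 94.2% of 3′ UTR sites lay wholly within it. Within internal exons, coding sequence up to 75 bp from an edge had 64.6 sites per Mb, and coding sequence farther in had 88.4. Density was 59.0 per Mb in internal exons under 150 bp, 77.1 and then 97.8 in the 2 longer length classes under 1000 bp, and 79.3 in exons of 1000 bp and over.

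Distance from a TSS separated coding sequence and 3′ UTRs. Coding density was 152 sites per Mb at 1 to 2 kb, 91.0 at 2 to 5 kb, 72.7 at 5 to 20 kb and 65.7 beyond 20 kb. The 3′ UTRs had 110, 99.1, 85.5 and 83.4 per Mb over the same distances, and introns 127, 92.5, 83.8 and 66.5. Coding sequence lay above 3′ UTRs only in the nearest bin, at 1.39 times. The nearest members to the 1 kb limit lay 1002 bp from a start in Gm44755 (signals 17.8 and 16.8) and in Gm32235 (27.7 and 25.5), and 1003 bp in Itpr1 (12.6 and 17.4), the gene for an endoplasmic reticulum calcium channel. Just inside it, 3 sites at 1000 bp had signals of 20.6, 25.8 and 37.5 in replicate 1 and 13.1, 28.8 and 37.3 in replicate 2. Measured against another annotation, 356 of 7691 (4.63%) were within 1 kb of a RefSeq transcript start, among them 31.9% of 5′ UTR, 6.24% of coding and 1.64% of 3′ UTR sites.

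The strongest exonic sites were an uneven group. The highest mean rank belonged to a site in exon 3 of Gm10801 (chr2:98663801-98663950), annotated as protein-coding, with signals of 301.7 in replicate 1 and 355.2 in replicate 2. Of its central 150 bp, 93.3% was marked as repeat, and 75.6% of its 32-base words were unique. The next, with signals of 279.3 and 394.1, lay in the 3′ UTR of Lars2, the mitochondrial leucyl-tRNA synthetase gene (chr9:123461921-123462070), and 43.7% of its words were unique. The other 8 of the top 10 had wholly unique sequence.

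Several of these 8 lay near a start known to RefSeq. The 5′ UTR sites of Zfp503, a zinc finger repressor gene (chr14:21987941-21988090; signals 261.3 and 292.7), and of the splicing factor gene Sf3b5 (chr10:13008301-13008450; 205.5 and 238.4) were 666 and 74 bp from one. The coding sites in exon 2 of Angptl6, which encodes a secreted angiopoietin-like protein (chr9:20878221-20878370; 205.2 and 264.8), and in B430305J03Rik (chr3:61363761-61363910; 229.0 and 244.8) were 234 and 671 bp away. The lincRNA B930059L03Rik (chr12:110591601-110591750; 214.8 and 222.7) was 302 bp away, which made 5 of the 10. Sites with no RefSeq start within 1 kb lay in the 3′ UTR of the transcription factor gene Sox12 (chr2:152396341-152396490; 216.7 and 238.5), in the last exon of Bcat2, a mitochondrial branched-chain aminotransferase gene (chr7:45589261-45589430; 207.1 and 238.5), and in the antisense gene A430078I02Rik (chr6:86472301-86472490; 196.2 and 235.7). Among the 100 strongest exonic sites, 11 lay within 1 kb of a RefSeq start.

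Below the top 10, the strongest in each class had the following signals in replicates 1 and 2. Among coding sites, Synpo2l (given above with its CTCF match) was followed by Lpar5, a lysophosphatidic acid receptor gene, with 157.9 and 184.6. Among 5′ UTR sites these were A930004D18Rik with 180.6 and 205.2, Rap2b, a small GTPase gene, with 138.3 and 157.2, and Kdm6b, a histone H3 lysine demethylase gene, with 143.8 and 148.7. The 3′ UTR sites were in Skap2, a cytoplasmic adaptor gene, with 164.5 and 219.2, and in the linker histone gene Hist1h1d with 191.1 and 172.3. Other gene exons followed with A330035P11Rik (172.3 and 202.9), Gm31718 (181.4 and 178.3) and 0610005C13Rik (170.6 and 188.6). Replicate 2 had the larger value at all but Hist1h1d and Gm31718.

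At least 1 exonic site was found in 4179 of 19788 autosomal protein-coding genes with any exon sequence over 1 kb from a TSS (21.1%). Of these, 2934 had 1 site, 850 had 2, 252 had 3, 80 had 4 and 63 had 5 or more. The share depended on length: it was 6.19% in the genes with the least exon sequence and 39.9% in those with the most, split into 5 groups of equal size, while density ran the other way at 119 and 80.5 sites per Mb. Gene classes are therefore given per Mb of exon, beside 91.2 per Mb for all protein-coding genes. They are also set against the number that the GC content of their exons gives at the density of all protein-coding genes. The classes, too, count only genes with exon sequence over 1 kb from a TSS.

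Developmental regulators and replication-dependent histone genes were the densest classes. Of 38 Hox genes, which pattern the body axis, 18 had a site (47.4%), beside 21.1% of all protein-coding genes counted. Their 22 sites made 457 per Mb and 3.50 times the number at equal GC. Of 153 other homeobox, Sox, Fox, Gata, Tbx, Klf and Sall genes, 76 had a site (49.7%), in all 156 sites, 305.5 per Mb and 2.43 times the number at equal GC. Genes with Wnt, Fgf, Bmp and Gdf symbols, most of which encode signals between cells of growing organs (Bmp1, counted with them, is a protease), had 31 sites in 22 of 59 genes, 211 per Mb and 1.66 times. Replication-dependent histone genes had 8 sites in 5 of 18 genes, 366 per Mb and 5.85 times the number at equal GC, above every other class on that measure. Of the 8, Hist1h1d held 3 on 6424 bp of exon and Hist1h2be held 2 on 3370 bp. The median histone gene offered 694 bp. Notch receptor and ligand genes had 11 sites in 3 of 9 genes, 267 per Mb and 1.63 times. These last counts are small.

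Sensory receptor genes were at the other end. Olfactory receptor genes, which nasal neurons use, had a site in 9 of 1043 genes (0.863%), 6.02 per Mb and 0.146 times the number at equal GC. All 13 of their sites lay in 3′ UTRs. Vomeronasal receptor genes had 4 sites in 273 genes and clustered protocadherins 4 sites in 57. Zinc finger genes of the Zfp, Zscan, Zkscan and Zbtb names had 92 sites in 67 of 453 genes, 49.9 per Mb and 0.596 times. Solute carriers, the membrane transporters of which kidney tubules use many, were close to all genes with 127 sites in 96 of 356 genes, 98.2 per Mb and 1.04 times. Keratin and laminin genes were not sparse per Mb of exon. Keratin genes had 14 sites, 13 of them coding, at 176 per Mb and 1.34 times the number at equal GC. These lay in 11 of 67 genes (16.4%), below the 21.1% of all protein-coding genes. Laminin genes had 10 sites in 3 of 11 genes, 119 per Mb and 1.04 times, and 6 of the 10 lay in Lamb1. Collagens had 23 sites in 19 of 42 genes (45.2%), yet 0.737 times the number at equal GC. A collagen gene offered a median of 6325 bp of exon, and a protein-coding gene 2513 bp. Across the 20 classes, 12 stood above 1 at equal GC, 3 above 2 and 3 under 0.5.

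**Figure D4:**
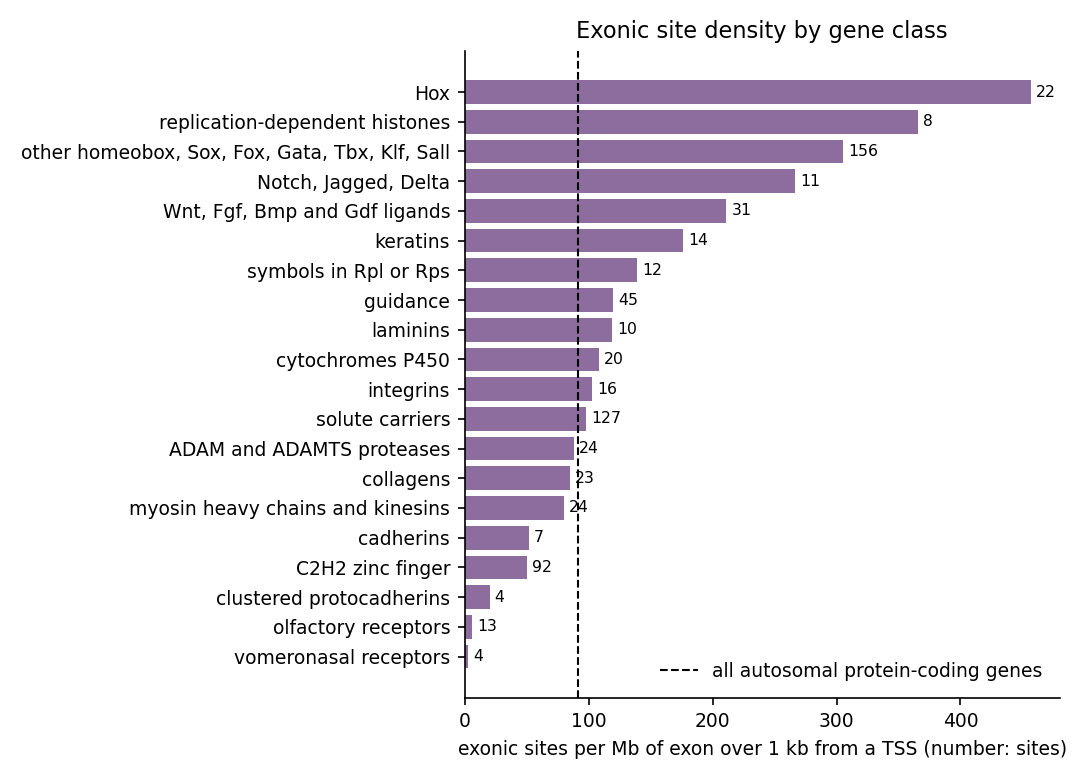
Exonic sites per Mb of exon over 1 kb from a TSS in 20 gene classes set by symbol, with the number of sites beside each bar; the dashed line is the value of all autosomal protein-coding genes, 91.2. Hox genes stand at 457 and the other developmental factors at 305.5, with vomeronasal receptors lowest at 2.80.

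Outside protein-coding genes, too, only genes with exon sequence over 1 kb from a TSS were counted. Of 8212 such long non-coding RNA genes, 997 had a site (12.1%), 127 per Mb. Pseudogenes had 21.3 per Mb, with 49 sites in 39 of 3194 genes. LincRNA genes held 685 of the sites in other genes, unconfirmed genes 355 and antisense genes 325.

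The Hox sites were strong as well as dense. Signals ran over 26.8 to 111.8 in replicate 1 and 23.5 to 135.7 in replicate 2, with medians of 50.8 and 50.2, against 19.4 and 19.1 for exonic sites of all protein-coding genes. Of the 22 sites, 18 lay within 2 kb of a TSS, in clusters where genes are packed closely. The strongest was in an exon of a non-coding transcript of Hoxd11 (chr2:74686421-74686570; 111.8 and 135.7), followed by the coding exon 2 of Hoxd10 (chr2:74694141-74694290; 87.4 and 84.4) and a 5′ UTR exon of Hoxc9 (chr15:102981461-102981610; 78.7 and 89.5). Hoxa11, which with Hoxd11 is needed for mouse kidney formation, had a 3′ UTR site with 64.6 and 65.9 (chr6:52243061-52243230), and Hoxa10 one with 72.1 and 66.9. All 22 were above the exonic median in both replicates.

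The other developmental factors had many sites of ordinary strength, with medians of 17.5 in both replicates. Foxc1, a forkhead factor of mesenchyme, had 8 sites in its single exon, 1.65 per kb, of which 2 were coding and 6 in the 3′ UTR. Their signals spanned 19.9 to 51.6 in replicate 1 and 22.8 to 36.6 in replicate 2. Sp9, a zinc finger factor gene, had 8 sites, 1.64 per kb, and Sox11 had 7, all in its 3′ UTR (chr12:27338221-27341290 from the first to the last). Sox11 signals spanned 16.5 to 31.2 in replicate 1 and 14.0 to 44.5 in replicate 2.

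The genes with the most exonic sites also included long genes, at densities below those of Foxc1 and Sp9 but above the 91.2 per Mb of all protein-coding genes. These genes were picked for their number of sites, so their place above that value follows in large part from the choice. Dnm3, a dynamin gene, had 9 sites at 0.441 per kb, and Dst, which encodes a large cytoskeletal linker, had 9 at 0.281 per kb, 7 of them coding. Signals of the Dst sites spanned 11.2 to 60.1 in replicate 1 and 11.3 to 62.9 in replicate 2. E130308A19Rik had 8 sites, Wwc2 had 7, and BC004004, the Polycomb gene Cbx6 and Dock4, which encodes an activator of small GTPases, had 6 each, as did 17 further genes that tie with them.

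Genes that mark kidney cell types had 37 exonic sites, in 17 of 36 autosomal markers (47.2%), beside 21.1% of the 19788 protein-coding genes above. Of these sites, 16 were coding and 14 in 3′ UTRs, and signals ran over 7.75 to 101.1 (median 18.6) and 8.83 to 118.6 (median 17.1). Markers of leukocytes, erythroid cells, adrenal cortex and liver had 6 sites in 6 of 16 genes (37.5%), with signals of 19.5 to 114.3 (median 31.0) and 19.4 to 125.3 (median 33.4). These lists name regulators as well as proteins of mature cells, and gene length was not matched between them. By list, genes with a site were 4 of 6 for nephron progenitors (Cited1 was not assessed) and 3 of 6 for podocytes. They were 1 of 6 for proximal tubule, 2 of 4 for loop and distal tubule, and 2 of 5 for ureteric bud and collecting duct. Stroma had 3 of 5 and endothelium 2 of 5. Leukocytes had 2 of 5, erythroid cells 2 of 4 (Alas2 was not assessed), and adrenal cortex and liver 1 of 4 each.

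In the stroma list, Foxd1, the forkhead factor of stromal progenitors, had 6 sites in its single exon on chr13, whose signals spanned 17.3 to 37.8 and 12.7 to 40.4. The strongest lay in the 3′ UTR (chr13:98358841-98359010). Meis1, a homeobox gene of the same list, had a 3′ UTR site with 52.6 and 59.2 (chr11:18883581-18883750) and a site in a non-coding transcript with 61.3 and 65.5. Among nephron progenitor genes, Six2, the factor that keeps progenitors undifferentiated, had a coding site in exon 2 with 13 and 19.2 (chr17:85685341-85685510). Osr1 and Eya1, which act upstream of it, had 3 sites each. Osr1 signals spanned 10.02 to 18.97 in replicate 1 and 9.27 to 17.1 in replicate 2, and Eya1 signals 7.75 to 22.9 and 8.83 to 24.0. Crym had 2 coding sites, with 9.27 and 10.4 in replicate 1 and 16.0 and 12 in replicate 2, and Meox1 had none. The strongest progenitor site, in Eya1 with 22.9 and 24.0, stood above the exonic medians of 19.6 and 19.3. The other progenitor sites lay near or below these medians.

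Some podocyte genes reached higher. Wt1, a zinc finger factor of podocytes and their progenitors, had a site in an exon of a non-coding transcript with 80.6 and 77.4 (chr2:105132421-105132570). Synpo, which organises actin in podocyte foot processes, had 3 sites, of which the strongest was coding with 101.1 and 118.6.

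In tubule and duct genes, Lrp2, the proximal tubule endocytic receptor, had coding sites in exons 35 and 62 of 79 and a 3′ UTR site, with signals of 12.6 to 26.4 and 11.0 to 29.2. No exonic site was found in the other proximal tubule markers, Cubn, Slc34a1, Slc3a1, Hnf4a and Aqp1. The same held for Slc12a1, Calb1, Ret, Gata3 and Scnn1g of the loop, distal tubule and duct lists. Aqp2, the water channel of the collecting duct, had a coding site in exon 4 with 35.98 and 35.5 (chr15:99583941-99584110), although its promoter peak was present in replicate 2 only. Umod, the thick limb glycoprotein gene, had a coding site with 22.8 and 25.3. In endothelial genes, the VEGF receptor gene Kdr had a 3′ UTR site with 37.4 and 36.4, and Tek, an angiopoietin receptor gene, had coding sites in exons 15 and 16 with 18.6 and 15.1 in replicate 1 and 20.2 and 11.0 in replicate 2.

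In the lists of other tissues, the strongest sites lay in coding exons of blood regulators: Spi1, a myeloid factor, had 114.3 and 125.3 (exon 5, chr2:91115161-91115310), and Klf1, the erythroid factor, had 93.0 and 105.8 (exon 2, chr8:84903141-84903290). Both genes had a promoter peak in both lists. The albumin gene Alb had a coding site in exon 7 with 29.9 and 28.5 (chr5:90467361-90467510), while its promoter had no peak in either list. In whole tissue, fewer cells of a type and a weaker site in each cell cannot be told apart.

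Notch1, a receptor in nephron segmentation, had 6 sites. The strongest lay in an exon of a non-coding transcript (chr2:26500601-26500750) with 135.5 and 132.0, and the last exon held 2 in the 3′ UTR and 1 in coding sequence. Its ligand gene Jag1 had 3 coding sites, with 16.5, 30.6 and 16.7 in replicate 1 and 11.4, 18.6 and 27.3 in replicate 2. Pax8, a factor of the nephric lineage, had 5 sites of 10.4 to 18.9 and 12.7 to 19.7, all in exon 2 of a non-coding transcript.

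Of 14 consensus motifs searched, that of CTCF was found in 350 exonic sites, whose median signal was above that of the others. Motifs were searched on both strands in the central 150 bp, and a match is a description of the letters and not evidence of binding. Sites with a CTCF match were 4.55% of exonic sites (exact binomial 95% interval 4.10% to 5.04%, counting error only). The share was 5.95% in 3′ UTR, 4.31% in 5′ UTR and 3.91% in coding sites, against 3.34% of intronic, 4.41% of intergenic and 1.65% of promoter sites. Central windows held 350 matches and both flanks 500 bp away 20, a ratio of 35 per window. Exonic sites with a match had median signals of 41.1 in replicate 1 and 45.3 in replicate 2, and those without 19.2 and 18.7. Fewer sites held RFX matches (10 sites, medians 44.2 and 52.4) or REST matches (21 sites, 35.8 and 37.0), and their medians also stood above the exonic median, as did those of NRF1 (29.4 and 30.9) and ETS matches (29.3 and 27.4). Of exonic sites in the strongest decile of all shared sites, 17.8% held a match (76 of 428), against 0.726% in the weakest decile (6 of 826). Intronic sites gave 14.5% and 0.411% in the same deciles.

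**Figure D5:**
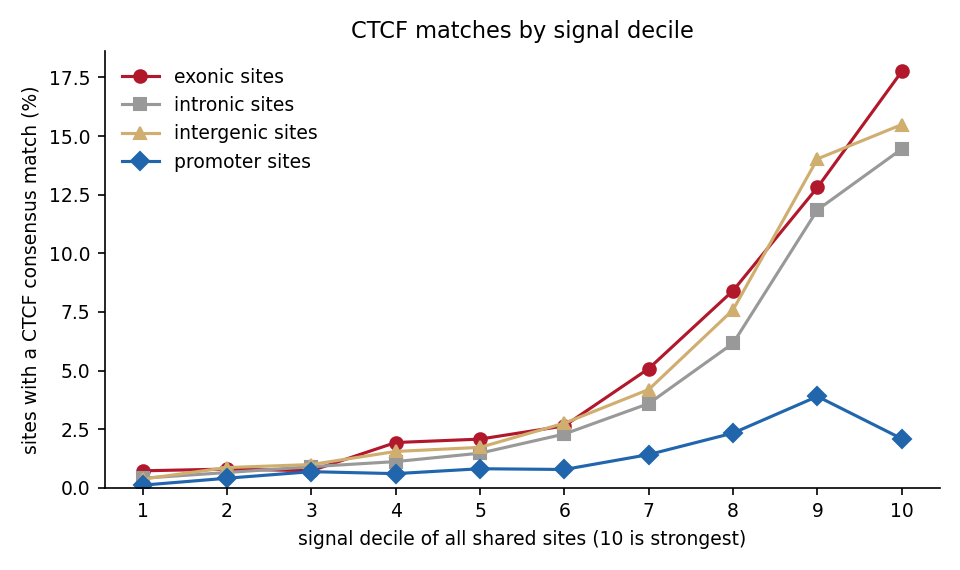
Share of sites with a CTCF consensus match in the central 150 bp, by decile of signal among all shared sites, for exonic, intronic, intergenic and promoter sites. The exonic share climbs to 17.8% in the strongest decile, close to intronic and intergenic sites, while promoter sites stay under 4%.

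In coding sequence, the 69 CTCF matches that lay wholly in codons took every frame and both strands. With the gene strand, 8, 8 and 14 began at codon positions 1, 2 and 3, and on the opposite strand 10, 19 and 10 did. The NRF1 motif was more frequent in coding sites: 1.35% of coding sites (29) and 0.559% of all exonic sites had a match, against 0.0951% of intronic, 0.139% of intergenic and 2.86% of promoter sites. The ETS motif CCGGAAGT was found in 1.02% of coding and 0.728% of exonic sites, against 0.350% of intronic and 2.38% of promoter sites. Motif frequency was not matched for CpG content, which also differed between coding and intronic sites, and its part in these shares was not tested.

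Motifs of distal elements were less frequent in coding sites. The AP-1 motif TGAGTCA occurred in 2.10% of coding, 4.12% of 3′ UTR and 3.58% of exonic sites, against 4.74% of intronic sites. The TEAD motif ACATTCC occurred in 3.40% of coding and 4.24% of exonic sites, against 5.02% of intronic sites, and the posterior Hox motif TTTATGG in 1.21% and 2.34%, against 3.46%. The E-box CAGCTG went the other way, with 22.1% of coding and 17.8% of exonic sites against 16.1% of intronic sites. In coding sites its centre over flank ratio was 2.50, against 2.23 in intronic sites. The coding ratios of the AP-1, TEAD and posterior Hox motifs were 1.08, 1.92 and 0.693. In intronic sites these were 1.84, 2.34 and 1.53. Exons holding coding sites had a median length of 369 bp, so flanks 500 bp away often fell outside the exon. The base composition of flanks was not matched between coding and intronic sites, and its part in these ratios was not tested.

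The remaining motifs were rare in exonic sites. REST matches were in 21 exonic sites (0.273%, against 0.245% of intronic sites), the SP/KLF motif GGGGCGGGG was in 1.48% (against 0.890%) and the WT1/EGR motif GCGTGGGNG in 0.884% (against 0.562%). The HNF4 motif CAAAGTCCA was in 0.273% of exonic sites against 0.367% of intronic sites. RFX matches were in 0.130% (against 0.133%) and NFI matches in 5 exonic sites. HNF1, the motif of a tubule regulator, had no match in 7691 exonic sites, which allows a share of up to 0.0480% by the exact binomial interval, and 9 in 78838 intronic sites (0.0114%).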

How the data were processed

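DNase-seq peaks of 2 replicates were analysed. Per the file headers, the authors deposited 1 narrowPeak list per replicate on mm10 (GRCm38). Sources used here name no aligner, peak caller, threshold or depth. The deposited signal of a peak (column 7, in steps of 1/64) was used to describe and rank peaks, and a site took its strongest peak in each replicate. The deposited −log10 p reached 324 and was not used further.

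Classes, exons and TSSs came from GENCODE M21, chromosomes 1 to 19. Densities used all autosomal bases over 1 kb from a TSS, with GC of the surrounding 150 bp in 8 bins (numpy 2.4.6, pandas 2.3.3, Python 3.11.15). The steps were tested on simulated data. Signal ratios (replicate 1 over replicate 2) were centred on their median log2 value, 0.01. With 1 group no test was made. Errors are SDs over the replicates (n = 2). Members, gene classes, markers and motifs were chosen with earlier results of these data known. Named sites are the 10 strongest by mean rank, the 5 strongest per class, the 10 genes with most sites and the 3 nearest to the 1 kb limit on each side. Sequences are of the 4 strongest coding CTCF sites and the 2 strongest of REST, NFI, NRF1 and AP-1, of which 8 are shown. Hox, Notch and kidney marker genes were described after their values were seen. RefSeq starts (GRCm38.p6) were added after seeing the data.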

Additional observations from a re-analysis of the deposited data

How the results depend on the processing

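Across 10 alternatives, coding sequence stayed below the number of sites at intronic density of equal GC. The 3′ UTR value lay on either side of 1. The values below differ by more than the spread between replicates (1 SD, n = 2), or, for the number of sites, by over 1.5 times; the cause was not tested unless the setting itself changes what is counted. RefSeq starts and the 3 ratios named last were added after seeing the data.

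Keeping the upper 50% of peaks by signal gave 3950 exonic sites, 26.6% coding, a coding over 3′ UTR density of 0.916, 65.3% in last exons, 12.5% of genes and 7.80% with CTCF. Basic transcripts gave 32.8% coding, a GC difference from introns of 4.0 percentage points (3.33 otherwise), 65.1% and 17.8%. Requiring the whole site in exonic sequence gave 17.4% coding, 0.493, a signal ratio to intronic sites of 1.05, 74.6%, 16.6% and 4.65%. UTRs before coding sequence gave 24.7% and 1.002. A 500 bp promoter window gave 1.08 (reversed), 4.0 points, 55.2%, 24.96% and 3.97%, and 2 kb gave 0.865, 1.02, 69.7% and 18.5%. Overlap of 50% gave 19.7% of genes and 5.08% with CTCF. RefSeq starts gave 64.5%, 20.5% and 4.65%.

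Coding sites over intronic density at equal GC were 0.566 (500 bp), 0.521 (2 kb), 0.481 (upper 50%) and 0.263 (whole site), from 0.549. The 3′ UTR ratio was 0.968, 1.01, 1.01 and 0.935 for these, 0.998 with 50% overlap, 1.001 with basic transcripts, 0.922 with UTRs first and 1.01 with RefSeq starts, from 0.993. Developmental factor genes over all protein-coding genes were 2.66 (2 kb), 2.92 (50% overlap), 2.81 (upper 50%) and 4.14 (whole site), from 3.35.

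Each replicate alone gave 10300 to 10474 sites, 27.1 to 28.4% coding, 0.926 to 0.993, 1.01 to 1.03, 3.33, 62.8 to 63.9%, 25.4 to 25.6% of genes, 3.46 to 3.53% with CTCF, 0.572 to 0.586, 1.01 to 1.02 and 3.43 to 3.62 for these results. No paired analysis was possible because there is 1 group. Depth is unknown, so a missing peak is not shown to be a closed site.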

Other observations

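Exons of other genes had the highest density among the large exonic classes, 108.7 sites per Mb, against 81.7 in introns and 52.1 between genes. At equal GC they held 1.21 times the number of sites at intronic density, and 1.09 times when distance from a TSS was matched as well. Per class, long non-coding RNA genes held 1.64 times the number that their GC gave at the density of protein-coding exons, and unconfirmed genes 1.67 times.

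Repeats covered 8.27% of the central sequence of exonic sites, against 16.0% of exonic sequence, and 10.4% of intronic sites against 29.8% of intronic sequence. Exonic sites at 65% GC or more had median signals of 25.2 in replicate 1 and 26.03 in replicate 2, and those under 35% GC 16.97 and 15.03.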
